A study of Rattus norvegicus with 15 samples.

Results

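The genes described here are the chemokines and chemokine receptors of the rat femur, 45 of the 30454 genes in the deposited tables. The rule takes genes whose symbol begins with Ccl, Cxcl, Ccr or Cxcr followed by a number. That pattern matched 48 genes, and the rule leaves out 3 of them, Cxcl12, Cxcr4 and Cxcl10. Of the 45, 30 code for ligands and 15 for receptors. The study sequenced polyadenylated RNA of femurs from female SD (Sprague-Dawley) rats in 5 groups of 3 libraries, and asked what 2 plant extracts do to bone after loss of the ovaries. The Sham group had fat removed in place of the ovaries and received saline, and the OVX group lost both ovaries and received saline. The J, P and PJ groups also lost both ovaries, and were given an extract of Juglans regia L. (walnut) at 1.6 g/kg/day, an extract of Psoralea corylifolia Linn. at 2.4 g/kg/day, or both at 4.0 g/kg/day, by mouth. Surgery was done at an age of about 8 weeks, followed by 6 weeks of recovery and 8 weeks of treatment. Whether the 3 libraries of a group are 3 animals is not stated in the labels, and if they are not, the p-values describe technical spread alone.

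Chemokines are small secreted proteins that draw white blood cells along a concentration gradient by way of G protein-coupled receptors on those cells. Their names follow the spacing of conserved cysteines, so that CC ligands (Ccl) act on Ccr receptors and CXC ligands (Cxcl) on Cxcr receptors, with several ligands sharing a receptor. In bone and its marrow they take part in the release of neutrophils and monocytes into blood, in the placing of lymphocytes, and in the recruitment of osteoclast precursors.

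Several called genes fell into a few patterns, and the DNA just before the start of 5 of them, chosen by name, is shown first. Stretches of Ccr3 and Cxcl9 were also taken and are not shown. The letters are as RefSeq gives them in build GRCr8, which is a later build than the mRatBN7.2 named for the files. Cxcl16, Cxcl13 and Ccl7 fell from Sham to OVX and were called higher in P than in OVX, while Cxcr2 and Cxcl6 went the opposite way. Each stretch holds the 250 bases before the annotated start, 5′ to 3′ on the strand of the gene, and capitals mark matches to the motifs named after them. The stretches lie at chr10:55669951-55670200 on the minus strand for Cxcl16, chr14:13917921-13918170 on the minus strand for Cxcl13, chr10:67513845-67514094 on the plus strand for Ccl7, chr9:83178395-83178644 on the plus strand for Cxcr2 and chr14:17596418-17596667 on the minus strand for Cxcl6.
Cxcl16: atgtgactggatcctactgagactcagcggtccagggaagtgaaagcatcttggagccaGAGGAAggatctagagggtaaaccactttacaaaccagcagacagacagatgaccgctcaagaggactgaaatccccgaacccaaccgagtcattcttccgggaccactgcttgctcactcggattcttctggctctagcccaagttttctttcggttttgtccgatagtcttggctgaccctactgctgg
Cxcl13: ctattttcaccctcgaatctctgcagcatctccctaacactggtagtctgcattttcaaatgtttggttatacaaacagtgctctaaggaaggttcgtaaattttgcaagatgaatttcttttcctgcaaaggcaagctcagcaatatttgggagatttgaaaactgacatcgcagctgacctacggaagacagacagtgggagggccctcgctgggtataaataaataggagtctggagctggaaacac
Ccl7: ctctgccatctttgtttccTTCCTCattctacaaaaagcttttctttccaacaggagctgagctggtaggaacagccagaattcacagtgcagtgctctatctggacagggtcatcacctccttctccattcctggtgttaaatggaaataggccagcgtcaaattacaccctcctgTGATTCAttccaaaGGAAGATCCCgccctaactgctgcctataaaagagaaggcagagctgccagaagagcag
Cxcr2: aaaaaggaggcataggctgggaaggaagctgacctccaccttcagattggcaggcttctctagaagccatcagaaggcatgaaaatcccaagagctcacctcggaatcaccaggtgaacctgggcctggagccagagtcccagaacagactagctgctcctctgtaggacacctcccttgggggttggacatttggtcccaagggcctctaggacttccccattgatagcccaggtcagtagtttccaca
Cxcl6: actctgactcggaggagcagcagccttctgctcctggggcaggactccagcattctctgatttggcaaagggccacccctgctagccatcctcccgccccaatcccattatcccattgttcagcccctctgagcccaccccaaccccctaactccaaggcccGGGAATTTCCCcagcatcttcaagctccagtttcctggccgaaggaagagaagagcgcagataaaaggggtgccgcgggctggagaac
The search was for 6 motifs on both strands, each given as letters, a gap of any bases and further letters: an NF-kB site (GGG, 3 bases, TTCC), an estrogen response element (GGTCA, 3 bases, TGACC), a GAS element of STAT factors (TTC, 3 bases, GAA), an interferon-stimulated response element (GAAA, 2 bases, GAAA), an AP-1 site (TGA, 1 base, TCA) and a PU.1 core (GAGGAA, no gap). Ccl7 held an NF-kB match 59 bases before the start, an AP-1 match at 73 and a PU.1 match at 231. Cxcl6 held 2 overlapping NF-kB matches that begin 88 and 87 bases before the start. Cxcl16 held a PU.1 match at 191, and the Cxcl13 and Cxcr2 stretches held no match to these letters. Of the stretches not shown, that of Cxcl9 held no match. That of Ccr3 held the same 3 motifs as Ccl7, with NF-kB letters at 178, AP-1 at 143 and PU.1 at 180. Ccr3 rose from Sham to OVX and was called lower in P than in OVX, the opposite of Ccl7. Of the 45 genes, 32 had such a stretch in the table. The NF-kB letters were in 9 of the 32 (28.1%: Ccl6, Ccl7, Ccl9, Ccl20, Ccr3, Cxcl1, Cxcl2, Cxcl6 and Cxcl11), and in 4.53% of all 33469 stretches of the same length. The PU.1 letters were in 14 of the 32 (43.8%) and in 23.3% of all, and the AP-1 letters in 5 (15.6%) and in 6.34%. The GAS letters were in 4 of the 32 (12.5%) and in 7.67% of all, and those of the interferon-stimulated element in 1 (3.1%) and in 3.41%. The estrogen response element was in none of the 32 and in 0.0239% of all. A match describes letters and shows no binding.

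The values are FPKM (fragments per kilobase of gene, scaled to the library's size), so levels can be set side by side between genes. The smallest steps between the values gave back whole reads, 28.0 to 50.2 M reads per library, which is a lower limit to the depth. Between 19435 and 20845 genes were above 0 in a library. The bone genes Col1a1 (collagen I) and Bglap (osteocalcin) were present in all 15 libraries, at 35.3 to 1763 FPKM and 6.43 to 3620 FPKM. The groups differed widely in markers of other cells: the summed FPKM of 6 erythroid markers was 332.9 to 2043 in Sham and 28060 to 37410 in OVX, and that of 5 cartilage markers was 1649 to 3673 in Sham and 1.15 to 2.41 in OVX. In such bulk RNA, fewer cells of a type and less RNA per cell cannot be told apart. Libraries are named by group and number, and 4 stood apart from the others of their groups: Sham 3, J 2, P 2 and PJ 3. In Sham 3 the osteoclast markers summed to 2250 FPKM, against 87.2 and 78.5 in the other Sham libraries, and Bglap was 881.5 FPKM, against 34.0 and 6.43. J 2 was high in Ms4a1, the CD20 antigen of mature B cells (136.8 FPKM, against 60.2 and 26.8 in the other J libraries), P 2 had the most muscle RNA (822.3 FPKM summed) and the largest mitochondrial share (35.9%), and PJ 3 had the highest T and NK cell markers (206.4 FPKM summed).

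The levels of the 45 genes differed widely. Averaged over all 15 libraries, Cxcl14 alone was above 100 FPKM, 8 genes lay between 10 and 100, 21 lay between 1 and 10, and 15 were below 1. Those 15 (Ccl1, Ccl11, Ccl19, Ccl20, Ccl22, Ccl25, Ccl26, Ccl27, Ccl28, Ccr4, Ccr8, Ccr9, Cxcl3, Cxcl11 and Cxcr1) were not tested in the main comparisons, which took genes with a mean of at least 1 FPKM. Ccl1, Ccl20, Ccl28 and Cxcr1 never had more than 3 reads in a library. The tests were made with limma on log2(FPKM + 1) for 14416 genes, 30 of them chemokine or receptor genes, and adjusted with the Benjamini-Hochberg method over all 14416. Differences on this scale understate the change of low genes. A gene is called higher or lower where its adjusted p is under 0.05.

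**Figure D1:**
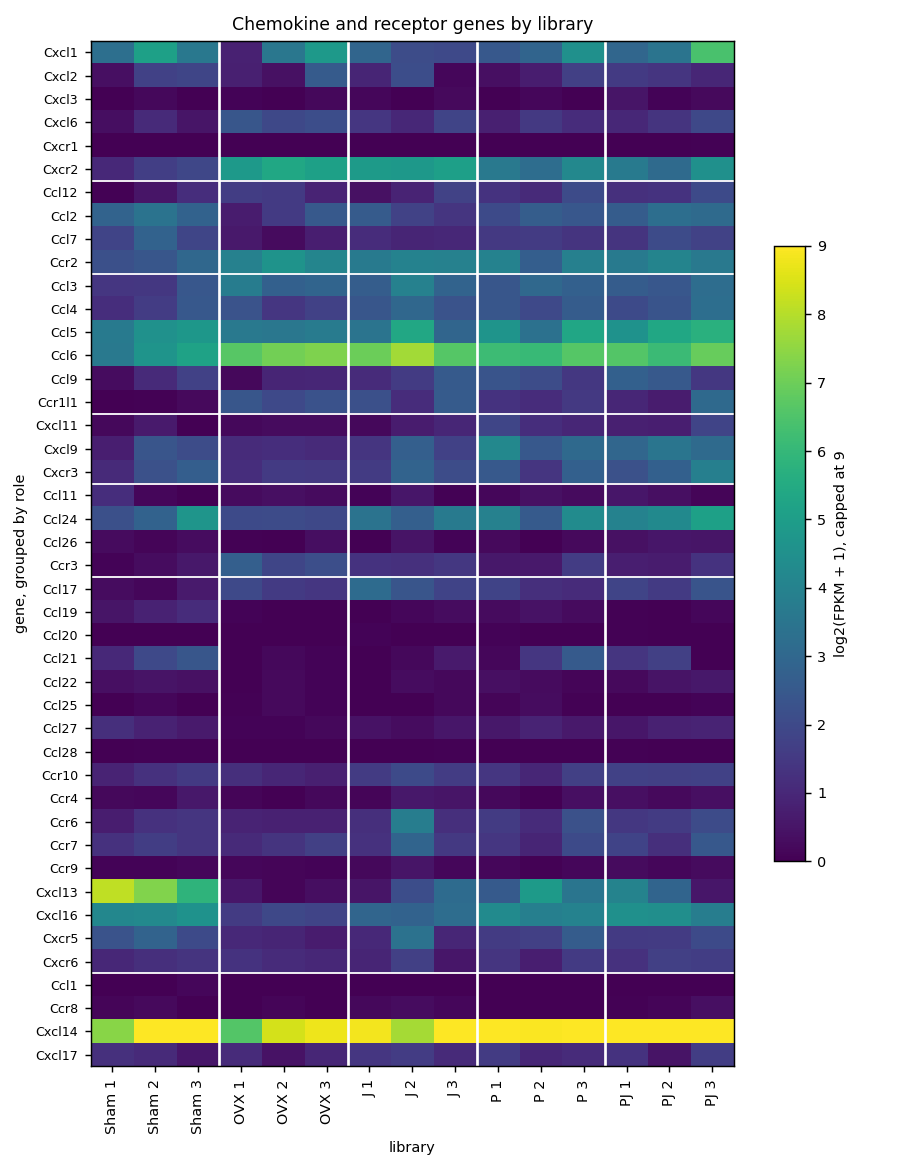
FPKM of the chemokine and receptor genes (rows, ordered by role) in the 15 libraries (columns, by group), shown as colour on a log2(FPKM + 1) scale capped at 9. Cxcl14 is bright in every group and Cxcl13 in Sham alone, and the 4 genes that never passed 3 reads stay dark throughout.

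Many genes differed between the groups in this tissue, so each count of chemokine genes is set beside the share of all tested genes. Between OVX and Sham, 14 of the 30 tested chemokine and receptor genes differed, 8 higher and 6 lower, which is 46.7% against 54.2% of all tested genes (25.3% higher and 28.9% lower). Against OVX, 1 of the 30 was higher in J and none was lower, beside 6.06% of all genes called (3.27% higher and 2.79% lower). In P, 6 were higher and 3 lower, beside 39.2% of all genes (24.2% higher and 15.0% lower). In PJ, 11 were higher and 2 lower, beside 44.4% of all genes (29.8% higher and 14.6% lower). The F test over all 5 groups called 14 of the 30, beside 50.0% of all genes. The median log2 difference of the 30 genes was −0.26 between OVX and Sham (−0.04 over all tested genes), 0.46 for J (0.11 over all), 0.45 for P (0.12 over all) and 0.78 for PJ (0.22 over all). With all 15 libraries the share called was below that of all genes in each of these comparisons, and the counts say nothing particular of chemokines. In all, 22 of the 30 genes (73.3%), 14 ligands and 8 receptors, were called in at least 1 of the 7 comparisons between pairs of groups, beside 62.3% of all tested genes. The comparisons with OVX share the 3 OVX libraries, so a gene that was extreme in OVX is extreme in each of them. Scaling each library by median ratios moved the median of all genes by −0.10 in J, −0.17 in P and −0.25 in PJ against OVX, and with that scaling 4 genes were higher and 4 lower in P, and 9 higher and 3 lower in PJ. The balance of all called genes also moved towards lower calls with that scaling, as given further below. Leaving out J 2, P 2 and PJ 3 together, a check added after the data were seen, gave 14 genes between OVX and Sham (46.7%, beside 61.6% of all genes), 15 in P (50.0%, beside 47.1%) and 15 in PJ (50.0%, beside 52.3%). In P the share was then slightly above that of all genes, too near it to say anything particular of chemokines. Without Sham 3, 13 genes were called between OVX and Sham. That count and those with median-ratio scaling have no share of all genes beside them, and say nothing particular of chemokines.

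Neutrophils leave the marrow and enter tissue by Cxcr2, the receptor of the ligands Cxcl1, Cxcl2, Cxcl3 and Cxcl6. Cxcr2 was 1.05, 2.21 and 2.74 FPKM in the Sham libraries, 27.7, 40.3 and 34.0 in OVX, 28.8, 26.7 and 32.8 in J, 11.4, 8.25 and 17.3 in P, and 11.7, 7.69 and 21.6 in PJ. Every Sham library was below every other, J overlapped OVX, and all P and PJ libraries lay below all OVX and J libraries. Cxcr2 rose by 3.58 ± 0.34 (log2, SE) in OVX against Sham (adjusted p = 2.89e-06, limma), and fell by 1.44 ± 0.34 in P (adjusted p = 0.00514) and by 1.35 ± 0.34 in PJ (adjusted p = 0.00625) against OVX. The sum of 10 neutrophil markers moved with it, at 268 to 853.2 FPKM in Sham, 20070 to 23490 in OVX, 9351 to 23080 in J, 3622 to 7021 in P and 1970 to 9107 in PJ, with Ltf at 0 in at least 1 library. S100a8 and S100a9 led that sum, with means of 10120 and 7499 FPKM in OVX. Mmp9 took another order, with means of 79.8 FPKM in Sham, 109.5 in OVX, 133.2 in J, 167.7 in P and 147.0 in PJ. Csf3r, the receptor of the neutrophil growth factor G-CSF, was 3.31 ± 1.31 FPKM in Sham, 46.3 ± 7.71 in OVX, 38.3 ± 5.73 in J, 15.8 ± 4.29 in P and 18.9 ± 6.38 in PJ (SD, n = 3 each). The part of these markers in the Cxcr2 values was not tested.

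The ligands of Cxcr2 did not share its course, apart from Cxcl6. Cxcl6 was 0.261, 1.11 and 0.426 FPKM in Sham, 4.29, 2.87 and 3.37 in OVX, 1.70, 1.01 and 2.60 in J, 0.727, 1.81 and 1.23 in P, and 1.03, 1.56 and 2.90 in PJ. OVX stood above every Sham, J and P library, and PJ 3 alone of the PJ libraries reached the OVX range. It rose by 1.52 ± 0.30 (log2, SE) in OVX (adjusted p = 0.000862) and fell by 1.02 ± 0.30 in P (adjusted p = 0.0172). The fall in P was not called without OVX 1 (adjusted p = 0.0697) or P 1 (adjusted p = 0.0712). In PJ, Cxcl6 differed from OVX by −0.71 ± 0.30 (adjusted p = 0.0702), and was called lower without PJ 3 (−0.97, adjusted p = 0.0210). Cxcl1, an early signal of tissue injury, was 8.81, 33.4 and 11.0 FPKM in Sham, 0.784, 10.7 and 27.2 in OVX, 6.62, 3.22 and 2.94 in J, 4.57, 6.51 and 21.8 in P, and 6.92, 10.1 and 83.5 in PJ. Its range within PJ exceeded any difference between group means, and neither it nor Cxcl2 (0.116 to 4.97 FPKM over all libraries) was called in any comparison. Cxcl3 reached at most 0.440 FPKM. Cxcr1, a second receptor for Cxcl6, was at or near 0 everywhere (at most 3 reads).

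**Figure D2:**
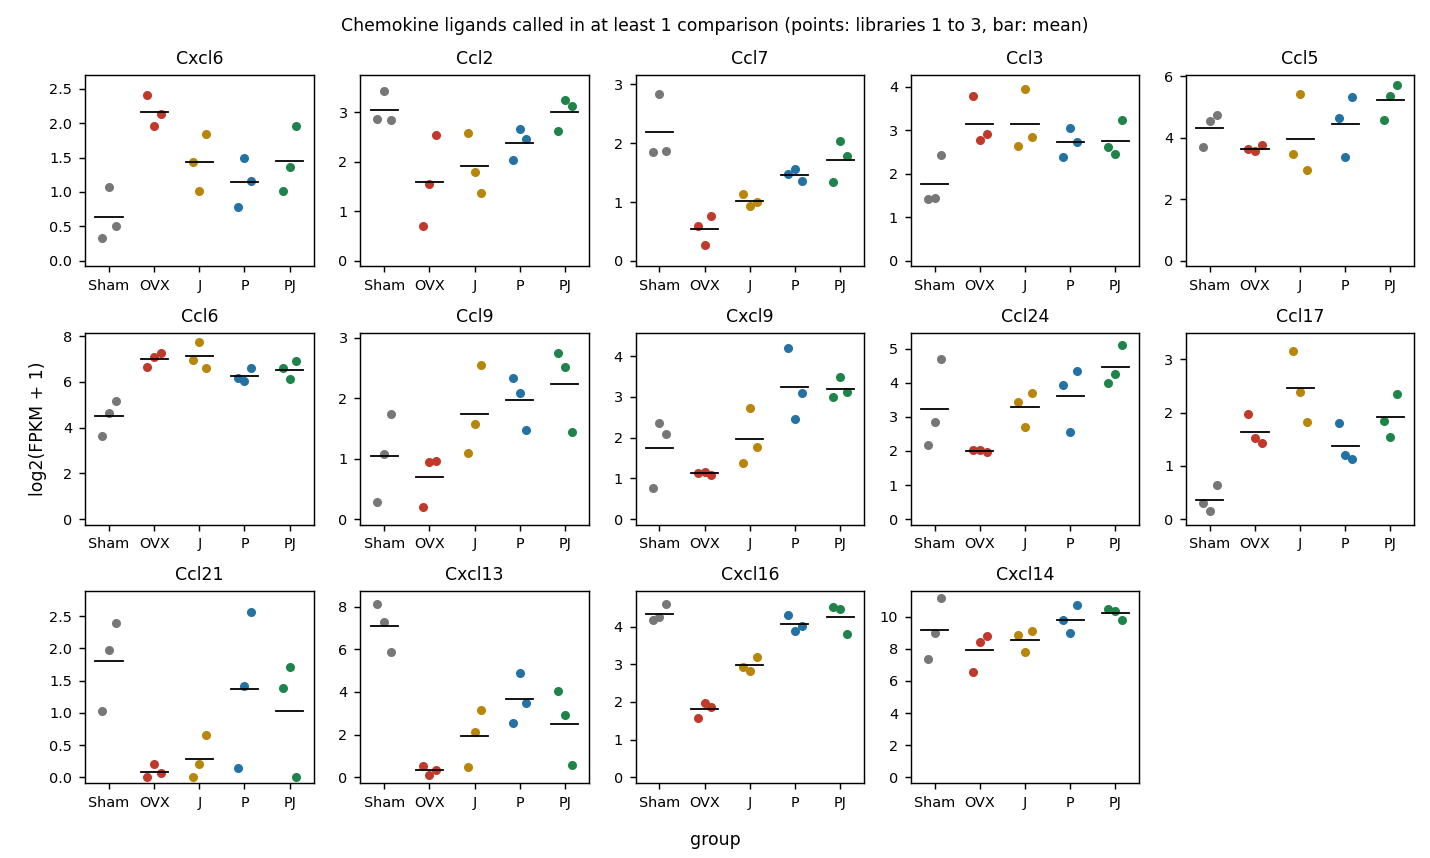
The 14 called chemokine ligands by group, as log2(FPKM + 1), with 1 point per library and a bar at the mean of the 3 points, each panel with its own axis from 0. The OVX points of Cxcl16, Cxcl9, Ccl24 and Ccl7 sit low and close together, while those of Ccl6, Ccl17 and Cxcl6 sit above the Sham points.

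Monocytes leave the marrow by Ccr2, which binds Ccl2, Ccl7 and Ccl12, and here the receptor and 2 of its ligands moved in opposite directions after ovariectomy. Ccr2 was 3.61, 4.34 and 7.12 FPKM in Sham, 14.4, 23.8 and 16.1 in OVX, 12.2, 14.8 and 14.4 in J, 14.9, 5.48 and 14.0 in P, and 12.2, 15.5 and 11.4 in PJ. It rose by 1.68 ± 0.32 (log2, SE) in OVX (adjusted p = 0.00067), the treated groups overlapped OVX, and none of their differences from OVX was called. Ccl7 was 2.59, 6.16 and 2.65 FPKM in Sham, 0.514, 0.201 and 0.687 in OVX, 1.19, 0.918 and 0.995 in J, 1.78, 1.94 and 1.56 in P, and 1.55, 3.12 and 2.43 in PJ. All 3 OVX libraries lay below the other 12. Ccl7 fell by 1.65 ± 0.26 in OVX (adjusted p = 0.000174), and rose by 0.92 ± 0.26 in P (adjusted p = 0.0141) and by 1.18 ± 0.26 in PJ (adjusted p = 0.00304). The rise in P was not called without OVX 2 (adjusted p = 0.0616).

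Ccl2, the ligand best known for calling monocytes out of marrow, followed Ccl7 with more spread. It was 6.24, 9.71 and 6.13 FPKM in Sham, 0.627, 1.91 and 4.78 in OVX, 4.98, 2.46 and 1.59 in J, 3.11, 5.29 and 4.50 in P, and 5.11, 8.47 and 7.70 in PJ. OVX was below Sham and below PJ without overlap, and overlapped J and P. Ccl2 fell by 1.45 ± 0.41 (log2, SE) in OVX (adjusted p = 0.00979) and rose by 1.40 ± 0.41 in PJ (adjusted p = 0.0153). OVX 1, the lowest library, weighed on both: without it the adjusted p was 0.0501 against Sham and 0.0745 for PJ. The call in PJ was also lost without PJ 2 (adjusted p = 0.0561) and without J 2, P 2 and PJ 3 together (0.0506), and in P Ccl2 was called higher without OVX 3 (1.26, adjusted p = 0.0209). Ccl12 was 0.0376 to 3.21 FPKM and was not called. The summed FPKM of 10 monocyte and macrophage markers was 346.5 to 493.9 in Sham, 218.1 to 332.5 in OVX, 229.7 to 407.5 in J, 178.2 to 568.8 in P and 470.1 to 576.5 in PJ, and none was at 0. Those sums were lower in OVX than in Sham, as Ccl2 and Ccl7 were and Ccr2 was not. The 10 markers did not fall together: between OVX and Sham, 1 was called higher, 1 lower and 8 were not called. C1qb led the sum, with means of 114.6 FPKM in Sham and 70.5 in OVX. Fcgr1a went the other way, with means of 16.6 FPKM in Sham and 37.1 in OVX. The means of Cd163 and Ly86 were also higher in OVX. The part of these markers in these results was not tested.

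Among the inflammatory CC ligands, a different set was higher in OVX. Ccl6 was 11.6, 24.3 and 35.1 FPKM in Sham, 99.6, 135 and 151 in OVX, 125, 214 and 98.3 in J, 70.6, 65.4 and 97.7 in P, and 95.6, 69.3 and 118 in PJ. This ligand, which rodents have and which myeloid cells make, was the most abundant CC chemokine in OVX, and every library after ovariectomy lay above every Sham library. It rose by 2.50 ± 0.37 (log2, SE) in OVX (adjusted p = 0.000106) and none of the treated groups was called against OVX. Ccl3, a macrophage inflammatory protein, was 1.67, 1.72 and 4.44 FPKM in Sham, 12.8, 5.82 and 6.52 in OVX, 5.25, 14.5 and 6.23 in J, 4.26, 7.27 and 5.70 in P, and 5.11, 4.46 and 8.40 in PJ. It rose by 1.39 ± 0.40 in OVX (adjusted p = 0.00989), a call that was lost without OVX 1 (1.07, adjusted p = 0.0521). Its close relative Ccl4 ranged from 1.24 to 8.60 FPKM and was not called in any comparison.

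The receptor Ccr1l1, a relative of Ccr1, was 0.0207, 0.0441 and 0.163 FPKM in Sham, 4.28, 3.00 and 3.85 in OVX, 3.62, 1.20 and 5.00 in J, 1.47, 1.19 and 1.80 in P, and 0.969, 0.593 and 7.49 in PJ. Every Sham library was below every other library, and PJ 3 was the highest of all while the other PJ libraries were the lowest of those after ovariectomy. Ccr1l1 rose by 2.12 ± 0.51 (log2, SE) in OVX (adjusted p = 0.00347). In PJ it was called lower than OVX without PJ 3 (−1.40, adjusted p = 0.00523) and not with it (−0.65, adjusted p = 0.327). All P libraries lay below all OVX libraries, and that difference was not called (−0.92 ± 0.51, adjusted p = 0.177, limma). P was called lower in the fit of only the groups compared (adjusted p = 0.0123, limma) and without J 2, P 2 and PJ 3 together (−0.83, adjusted p = 0.00528, limma). The span of Ccr1l1 lies inside that of Ccr3 in RefSeq's GRCr8 annotation, so reads may have been shared between them.

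Ccl5, a ligand made by T and NK cells, was not called between OVX and Sham, and was called higher in PJ than in OVX. It was 11.9, 22.5 and 26.0 FPKM in Sham, 11.4, 10.8 and 12.5 in OVX, 10.1, 41.6 and 6.74 in J, 24.3, 9.31 and 39.0 in P, and 22.8, 39.9 and 51.7 in PJ. Its rise in PJ of 1.57 ± 0.60 lay just past the threshold (adjusted p = 0.0487) and was lost without OVX 1, OVX 2, OVX 3, PJ 2 or PJ 3 (0.0847 to 0.135). Median-ratio scaling also lost it (adjusted p = 0.0863, limma). J 2 was the highest J library, and without it Ccl5 was also called higher in PJ than in J (2.00, adjusted p = 0.0325).

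Ccl9, a rodent relative of Ccl6 that acts on Ccr1 and calls osteoclast precursors, was lower in OVX than in every treated library, and Sham overlapped both. It was 0.221, 1.12 and 2.35 FPKM in Sham, 0.153, 0.925 and 0.944 in OVX, 1.14, 1.98 and 4.84 in J, 4.02, 3.26 and 1.78 in P, and 5.76, 4.76 and 1.72 in PJ. Sham 3 was the highest Sham library and exceeded J 1, J 2, P 3 and PJ 3. Its difference from OVX in J was not called (1.04 ± 0.47, log2, SE, adjusted p = 0.19, limma). Ccl9 rose by 1.26 ± 0.47 (log2, SE) in P (adjusted p = 0.0474) and by 1.54 ± 0.47 in PJ (adjusted p = 0.0174). The call in P was lost without OVX 1, OVX 2, OVX 3, P 1 or P 2 (adjusted p = 0.0640 to 0.166), and that in PJ without OVX 1 (0.0745), PJ 1 (0.0717) or PJ 2 (0.0623). With median-ratio scaling the call in P was lost as well (adjusted p = 0.0626, limma). The summed FPKM of 8 osteoclast markers was 78.5 to 2250 in Sham, 142.3 to 293.8 in OVX, 433.9 to 1184 in J, 560.3 to 2416 in P and 1118 to 2697 in PJ, with Calcr and Ocstamp at 0 in at least 1 library. These sums were higher in every treated library than in OVX, as Ccl9 was, and their part in its values was not tested.

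**Figure D3:**
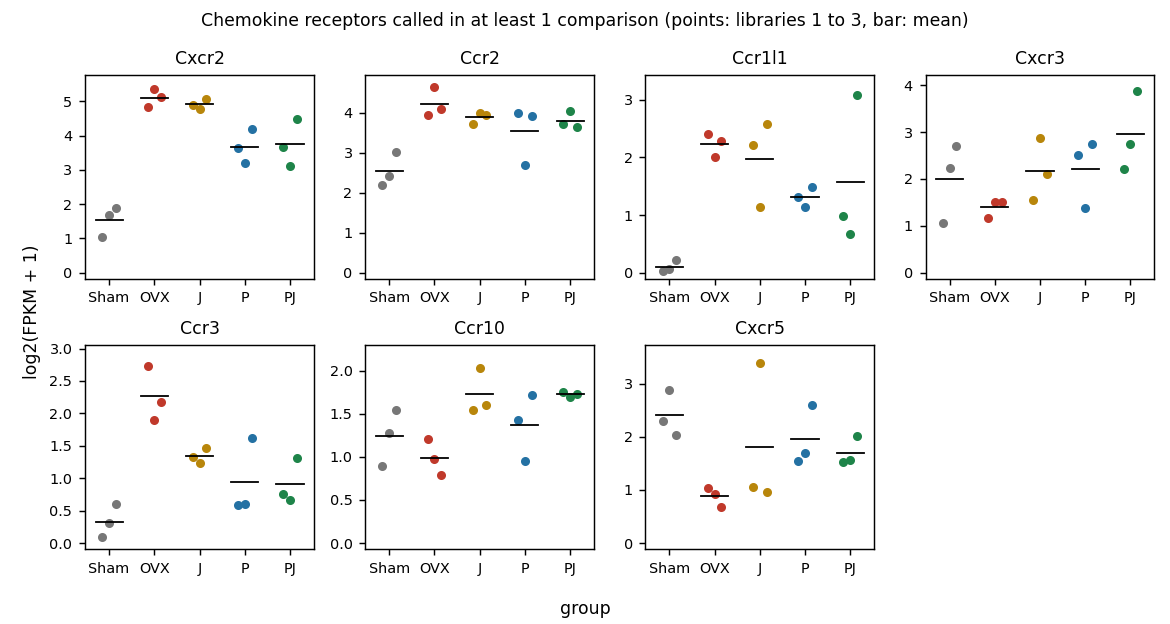
Called chemokine receptors by group, as log2(FPKM + 1), with 1 point per library and a bar at the mean of the 3 points, each panel with its own axis from 0. Cxcr2, Ccr2, Ccr3 and Ccr1l1 are lowest in Sham and high in OVX, and Cxcr3 and Ccr10 are higher in PJ than in OVX.

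Interferon induces Cxcl9 and Cxcl11, which call activated T cells and NK cells by Cxcr3. Cxcl9 was 0.694, 4.14 and 3.28 FPKM in Sham, 1.18, 1.24 and 1.10 in OVX, 1.61, 5.66 and 2.38 in J, 17.3, 4.53 and 7.47 in P, and 6.92, 10.3 and 7.73 in PJ. The OVX libraries agreed closely, all treated libraries lay above them, and Sham overlapped them. Cxcl9 rose by 2.13 ± 0.48 (log2, SE) in P (adjusted p = 0.00382) and by 2.08 ± 0.48 in PJ (adjusted p = 0.00375), and both calls were kept with any 1 library left out. Cxcl11, below the filter, was 0.144, 0.563 and 0 FPKM in Sham, 0.131, 0.207 and 0.194 in OVX, 0.148, 0.599 and 0.941 in J, 2.72, 1.28 and 0.958 in P, and 0.712, 0.684 and 2.57 in PJ. All P and PJ values again exceeded the OVX values, and in a fit with no filter P was called (1.12 ± 0.32, adjusted p = 0.0243). That fit called 37.3% of 24207 genes between OVX and Sham, 23.6% in P and 27.9% in PJ against OVX. The receptor Cxcr3 was 1.08, 3.70 and 5.49 FPKM in Sham, 1.26, 1.86 and 1.84 in OVX, 1.94, 6.32 and 3.30 in J, 4.67, 1.60 and 5.72 in P, and 3.66, 5.75 and 13.8 in PJ. It rose by 1.56 ± 0.52 in PJ (adjusted p = 0.0271). That call was lost without OVX 1, OVX 2, OVX 3, PJ 2 or PJ 3 (adjusted p = 0.0505 to 0.109), and without PJ 3 the difference was 1.09. Of 10 T and NK cell markers 9 were in the tables and none was at 0. Their summed FPKM was 26.2 to 78.3 in Sham, 132.8 to 134.6 in OVX, 117.5 to 153.6 in J, 47.9 to 123.8 in P and 90.6 to 206.4 in PJ. Nkg7, a granule protein of cytotoxic cells, led that sum at 88.4 ± 7.54 FPKM in OVX and 24.9 ± 11.0 in P (SD, n = 3 each), and was called higher in OVX than in Sham and lower in P and PJ than in OVX. The other 8 markers, summed apart after the data were seen, gave 22.3 to 66.0 FPKM in Sham, 39.7 to 53.3 in OVX, 45.9 to 111.8 in J, 34.9 to 89.2 in P and 69.4 to 170.7 in PJ. None of the 8 was called in P against OVX, and Cd3e, Cd5, Lck and Prf1 were called higher in PJ, where Cxcl9, Cxcr3 and Ccl5 were also higher. The part of these markers in Cxcl9, Cxcr3 and Ccl5 was not tested.

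Eosinophils and basophils follow Ccl11, Ccl24 and Ccl26 by Ccr3, and here ligand and receptor moved in opposite directions. Ccr3 was 0.0654, 0.238 and 0.511 FPKM in Sham, 5.61, 2.73 and 3.50 in OVX, 1.51, 1.35 and 1.77 in J, 0.501, 0.525 and 2.06 in P, and 0.694, 0.590 and 1.47 in PJ. OVX lay above all other libraries. Reads of Ccr3 may have been shared with Ccr1l1, as said above. Ccr3 rose by 1.93 ± 0.30 (log2, SE) in OVX (adjusted p = 0.000142), and fell by 1.33 ± 0.30 in P (adjusted p = 0.00403) and by 1.35 ± 0.30 in PJ (adjusted p = 0.00308). In J it differed from OVX by −0.92 ± 0.30 (adjusted p = 0.0840). Ccl24 was 3.55, 6.18 and 25.1 FPKM in Sham, 3.07, 3.12 and 2.89 in OVX, 9.82, 5.56 and 12.1 in J, 14.5, 4.86 and 19.4 in P, and 15.0, 18.1 and 33.6 in PJ. All 3 OVX libraries lay below the other 12. Ccl24 rose by 2.45 ± 0.59 in PJ (adjusted p = 0.00499), a call kept with any 1 library left out. Its rise in P (1.61 ± 0.59, adjusted p = 0.0454) was lost without OVX 1, OVX 2, OVX 3, P 1 or P 3 (0.0932 to 0.160), and against Sham OVX was called lower without Sham 1 (−1.77, adjusted p = 0.0267) and not with it (−1.24, adjusted p = 0.0936). Its call in P was also lost with median-ratio scaling (adjusted p = 0.0501, limma). Ccl11 and Ccl26 reached at most 1.25 and 0.470 FPKM.

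The 7 eosinophil and mast cell markers summed to 22.9 to 34.5 FPKM in Sham, 205.6 to 249.1 in OVX, 160 to 200.8 in J, 38.5 to 470 in P and 177.8 to 359.3 in PJ, and none was at 0. Ms4a2, the IgE receptor chain of mast cells and basophils, was 1.26 ± 0.422 FPKM in Sham, 45.1 ± 4.42 in OVX, 33.9 ± 15.6 in J, 9.84 ± 3.45 in P and 9.62 ± 7.84 in PJ (SD, n = 3 each), an order like that of Ccr3. Cpa3 and Prg2 also had their highest group mean in OVX. Siglec5 and Kit did not, with means of 14.9 and 11.5 FPKM in OVX and 33.2 and 46.8 in PJ, and Il5ra reached at most 0.636 FPKM. Epx, the eosinophil peroxidase, took another order, at 8.55 to 9.71 FPKM in OVX but 62.7 in P 3 and 49.8 in PJ 1. P 3 was also the P library with the most Ccr3, and PJ 1 lay between the other PJ libraries in Ccr3. The part of these markers in Ccr3 and Ccl24 was not tested.

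Homeostatic chemokines place lymphocytes in tissue at rest. Cxcl13, of this class, had the widest difference between OVX and Sham among the called genes. The median log2 difference of the 9 tested ligands and receptors of the class was −0.28 there. Cxcl13, which draws B cells into follicles by Cxcr5, was 279, 157 and 57.0 FPKM in Sham, 0.452, 0.0860 and 0.269 in OVX, 0.408, 3.41 and 7.82 in J, 4.91, 29.1 and 10.3 in P, and 15.3, 6.51 and 0.473 in PJ. In reads, Sham had 14933, 5907 and 2130, and OVX had 20, 4 and 12. No treated library reached the lowest Sham library, and every P library exceeded every OVX library. Cxcl13 fell by 6.76 ± 0.90 (log2, SE) in OVX (adjusted p = 4.43e-05) and rose by 3.32 ± 0.90 in P (adjusted p = 0.0113), and both calls were kept with any 1 library left out. In PJ it differed from OVX by 2.16 ± 0.90 (adjusted p = 0.0685), and was called higher without PJ 3 (3.13, adjusted p = 0.00995). The cartilage markers, summing to 1.67 to 108.7 FPKM in J, 24.0 to 1797 in P and 3.92 to 592.1 in PJ, were also high in Sham and low in OVX, with Acan at 0 in at least 1 library. P 2 had the most cartilage RNA and the most Cxcl13 among the treated libraries, and the part of cartilage RNA in the Cxcl13 values was not tested.

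Cxcr5, the receptor of Cxcl13, was 3.92, 6.36 and 3.08 FPKM in Sham, 1.06, 0.905 and 0.598 in OVX, 1.07, 9.52 and 0.944 in J, 1.93, 2.23 and 5.10 in P, and 1.88, 1.97 and 3.05 in PJ. It fell by 1.52 ± 0.53 (log2, SE) in OVX (adjusted p = 0.0270), and the call was lost without Sham 1, Sham 2, OVX 2 or OVX 3 (0.0514 to 0.0971). The summed FPKM of 8 B cell markers went the other way, 66.2 to 216.1 in Sham and 395.4 to 593.7 in OVX, with 595.7 to 1113 in J, 172.3 to 615 in P and 379.4 to 760.7 in PJ, and Vpreb1 was at 0 in at least 1 library. J 2 stood apart in Cxcr5 and also in Ccr6 (13.0 FPKM, against 1.33 and 1.34 in the other J libraries) and Ccr7 (6.48, against 1.44 and 1.78), receptors of mature B and T cells. It was also the J library with the most Ms4a1. Neither Ccr6 nor Ccr7 was called in any comparison.

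Cxcl16 separated the groups most clearly of all 30 tested genes, with the smallest p in the F test over the 5 groups (adjusted p = 4.85e-06). It is made as a membrane protein that binds oxidised lipids and, once shed, calls cells that bear Cxcr6. Cxcl16 was 17.0, 18.1 and 23.1 FPKM in Sham, 1.99, 2.90 and 2.62 in OVX, 6.62, 6.07 and 8.22 in J, 18.8, 13.8 and 15.0 in P, and 22.1, 20.9 and 13.0 in PJ. OVX lay below J, J lay below P and PJ, and P and PJ overlapped Sham. Cxcl16 fell by 2.54 ± 0.21 (log2, SE) in OVX (adjusted p = 9.56e-07), and rose against OVX by 1.18 ± 0.21 in J (adjusted p = 0.0114), 2.27 ± 0.21 in P (adjusted p = 6.17e-05) and 2.46 ± 0.21 in PJ (adjusted p = 1.83e-05). In J against OVX, 8 of the 30 genes had an unadjusted p under 0.05 by limma, beside 3604 of all 14416 tested genes. Cxcl16 was the single chemokine gene called there, and that call was lost without OVX 1 (adjusted p = 0.0717) or J 3 (0.0573). Cxcr6 did not follow: it ranged from 0.472 to 2.29 FPKM and was not called in any comparison. The 7 endothelial markers took the same order as Cxcl16, with a sum of 364.9 to 603.5 FPKM in Sham, 66.3 to 94.4 in OVX, 135.6 to 171.4 in J, 244.9 to 295.1 in P and 200.8 to 391 in PJ, none was at 0, and their part in the result was not tested.

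The ligands of Ccr7 and Ccr10 were lower in OVX as well, at low levels. Ccl21, which guides T cells and dendritic cells into lymphoid tissue, was 1.03, 2.93 and 4.25 FPKM in Sham, 0, 0.148 and 0.0515 in OVX, 0, 0.153 and 0.572 in J, 0.110, 1.67 and 4.89 in P, and 1.62, 2.29 and 0 in PJ. The OVX values stand for 0, 3 and 1 reads. Ccl21 fell by 1.71 ± 0.57 (log2, SE) in OVX (adjusted p = 0.0216), a call lost without Sham 2 (0.0612), Sham 3 (0.0815) or OVX 1 (0.0570), and in P it was called higher than OVX without P 1 (1.90, adjusted p = 0.0166). Ccl19, the other Ccr7 ligand, and Ccl27, a Ccr10 ligand of epithelia, were below the filter. The fit with no filter called 5 of the 15 genes below the filter (33.3%) in at least 1 of the 4 comparisons of OVX with another group, beside 20.9% of all 9791 genes below the filter and 43.1% of all genes. In it Ccl19 was lower in OVX by −0.81 ± 0.13 (adjusted p = 0.000351), from 0.816 ± 0.393 FPKM in Sham to 0.0212 ± 0.0368 (SD, n = 3 each). Ccl27 was lower by −0.80 ± 0.14 (adjusted p = 0.000811) and higher than OVX in P (0.57 ± 0.14, adjusted p = 0.0124) and PJ (0.64 ± 0.14, adjusted p = 0.00575). Ccr10 was 0.862, 1.42 and 1.91 FPKM in Sham, 1.31, 0.966 and 0.726 in OVX, 1.92, 3.10 and 2.03 in J, 1.68, 0.932 and 2.29 in P, and 2.38, 2.23 and 2.32 in PJ. J and PJ lay above OVX without overlap. Ccr10 rose by 0.74 ± 0.23 in PJ (adjusted p = 0.0196), a call lost without OVX 2 (0.0524), OVX 3 (0.0709) or PJ 1 (0.0531).

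Ccl17, a ligand of Ccr4 on T cells, was 0.233, 0.110 and 0.558 FPKM in Sham, 2.92, 1.88 and 1.68 in OVX, 7.85, 4.20 and 2.55 in J, 2.48, 1.30 and 1.18 in P, and 2.60, 1.91 and 4.09 in PJ. It was the homeostatic ligand that went up: all libraries after ovariectomy lay above Sham, and it rose by 1.27 ± 0.33 (log2, SE) in OVX (adjusted p = 0.00493). Ccl22, the other Ccr4 ligand, lies beside Ccl17 on the chromosome and reached at most 0.502 FPKM. With no filter Ccl22 was lower in OVX (−0.32 ± 0.10, adjusted p = 0.0265). Cxcl14, a ligand of connective tissue and epithelia with no settled receptor, was 167, 516 and 2295 FPKM in Sham, 94.5, 345 and 435 in OVX, 463, 220 and 543 in J, 871, 497 and 1703 in P, and 1422, 1316 and 898 in PJ. P and PJ lay above OVX without overlap, while Sham spanned nearly the whole range. Cxcl14 rose by 2.29 ± 0.83 in PJ (adjusted p = 0.0390), a call lost without OVX 1, OVX 2, PJ 1, PJ 2 or PJ 3 (0.0514 to 0.168), and OVX was called lower than Sham without Sham 1 (−2.16, adjusted p = 0.0341). The call in PJ was also lost with median-ratio scaling (adjusted p = 0.0567, limma). Sham 3, the Sham library with the most osteoclast RNA, held the most Cxcl14 and Ccl24 of its group. The difference of Cxcl14 between OVX and Sham was −1.26 with Sham 3 and −0.27 without it, and that of Ccl24 was −1.24 and −0.50, none of them called.

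**Figure D4:**
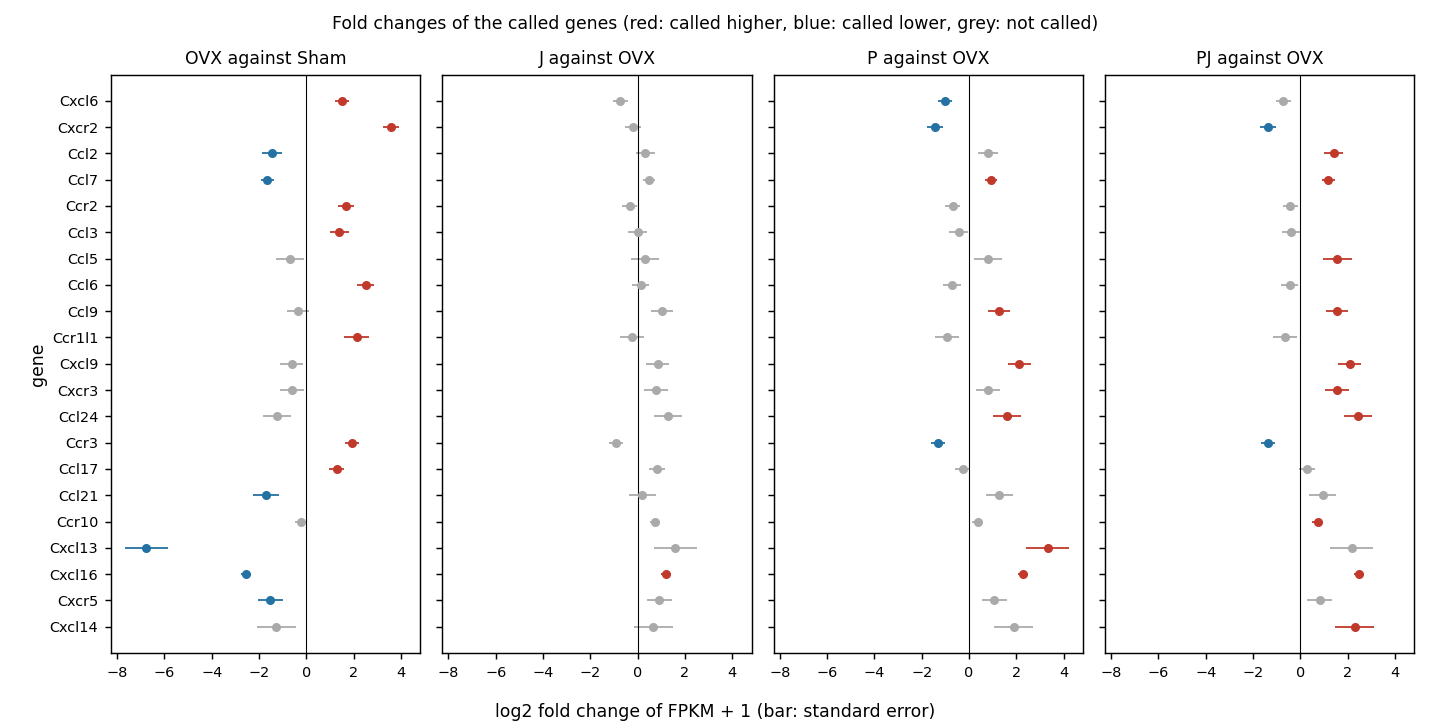
Log2 differences of called genes in FPKM + 1 (points) with their standard errors (lines), for OVX against Sham and for J, P and PJ against OVX, red where called higher, blue where called lower and grey where not called. Cxcl13 has the lowest value (−6.76) and Cxcr2 the highest (3.58) in OVX against Sham, and the 3 comparisons with OVX share its libraries.

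The treated groups were also compared with each other. P and J differed in 2 of the 30 genes, beside 7.42% of all tested genes (4.37% higher and 3.05% lower). Cxcl16 was higher in P by 1.08 ± 0.21 (log2, SE, adjusted p = 0.0364) and Cxcr2 lower by −1.25 ± 0.34 (adjusted p = 0.0476). PJ and J differed in the same 2 genes, beside 14.3% of all (8.38% higher and 5.88% lower). Cxcl16 was higher in PJ by 1.28 ± 0.21 (adjusted p = 0.00462) and Cxcr2 lower by −1.16 ± 0.34 (adjusted p = 0.0388). The Cxcl16 call in PJ was kept with any 1 library left out, and that in P was lost without J 1, J 3, P 1 or P 3 (adjusted p = 0.0666 to 0.109). The Cxcr2 call in P was lost with any 1 of the 6 libraries compared left out (0.0740 to 0.124), and that in PJ without J 1, J 2, J 3, PJ 1 or PJ 2 (0.0663 to 0.182). Ccr1l1 was called lower in PJ than in J without PJ 3 (−1.15, adjusted p = 0.0260). PJ and P differed in none of the 30 genes by limma, and 0.00% of all genes were called. None of the 30 had an unadjusted p under 0.05, beside 296 of all 14416 tested genes. The 95% intervals for PJ minus P were −0.25 to 0.64 for Cxcl16, −0.65 to 0.82 for Cxcr2, −0.31 to 0.83 for Ccl7 and −1.08 to 0.98 for Cxcl9. Differences within these bounds are compatible with the data. The intervals are not adjusted for the number of genes and are not limits of detection. PJ was also set against the sum of the J and P effects: none of the 30 genes was called by limma (0.00% of all). Of the 30, 2 had an unadjusted p under 0.05, beside 1332 of all 14416 tested genes. For Cxcl16 the combined effect was −0.99 ± 0.29 below that sum (adjusted p = 0.345, limma), and for Cxcl6 it was 1.03 ± 0.42 above it (adjusted p = 0.489, limma). P and PJ also differ from J in dose, so the comparisons are of the regimens as given.

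Of 15 listed genes of the chemokine system outside the naming rule, 14 were tested. Against Sham, OVX was higher in 4 (the platelet chemokines Ppbp and Pf4, the leukocyte receptor Ccrl2, and Cmtm7) and lower in 7 (the scavenging receptors Ackr2, Ackr3 and Ackr4, fractalkine Cx3cl1 and its receptor Cx3cr1, and chemerin Rarres2 with its receptor Cmklr1). Rarres2 was 37.0 ± 8.81 FPKM in Sham, 4.65 ± 3.76 in OVX, 12.2 ± 5.27 in J, 31.9 ± 15.4 in P and 38.2 ± 12.3 in PJ (SD, n = 3 each). Ackr3, which binds and removes chemokine ligands without G protein signalling, was 19.5 ± 1.07 FPKM in Sham, 1.07 ± 0.281 in OVX, 2.14 ± 1.37 in J, 11.0 ± 5.81 in P and 9.04 ± 7.06 in PJ. Both were low in OVX and J. Against OVX, none of the 14 was called in J, and 6 were higher in P and the same 6 in PJ: Ackr3, Ackr4, Cmklr1, Cx3cl1, Cx3cr1 and Rarres2. The log2 difference of Ackr4 was 2.90 ± 0.45 in P (adjusted p = 0.000389, limma) and 2.38 ± 0.45 in PJ (adjusted p = 0.0011). Ackr1, Ccrl2, Pf4 and Ppbp were lower in both. The share of the 14 called was 78.6% between OVX and Sham (54.2% of all genes) and 71.4% in P and in PJ against OVX (39.2% and 44.4% of all genes). Of the 30 listed genes that signal below chemokine receptors, all tested, 14 were higher and 3 lower after ovariectomy (OVX against Sham), a share of 56.7% beside 54.2% of all genes. Those higher included Rac2, a GTPase of blood cell migration (2.64, adjusted p = 0.000405), Itgam, the integrin chain CD11b (2.35, adjusted p = 0.000202), and Rgs18, a brake on G protein signalling in platelets (4.28, adjusted p = 3.22e-07). Rgs18 and Rap1b, a GTPase of integrin activation, were lower than OVX in J, P and PJ, and were the only 2 of the 30 called in J. In P, 3 were higher and 5 lower, and in PJ 4 were higher and 4 lower, 26.7% in each, beside 39.2% and 44.4% of all genes.

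**Figure D5:**
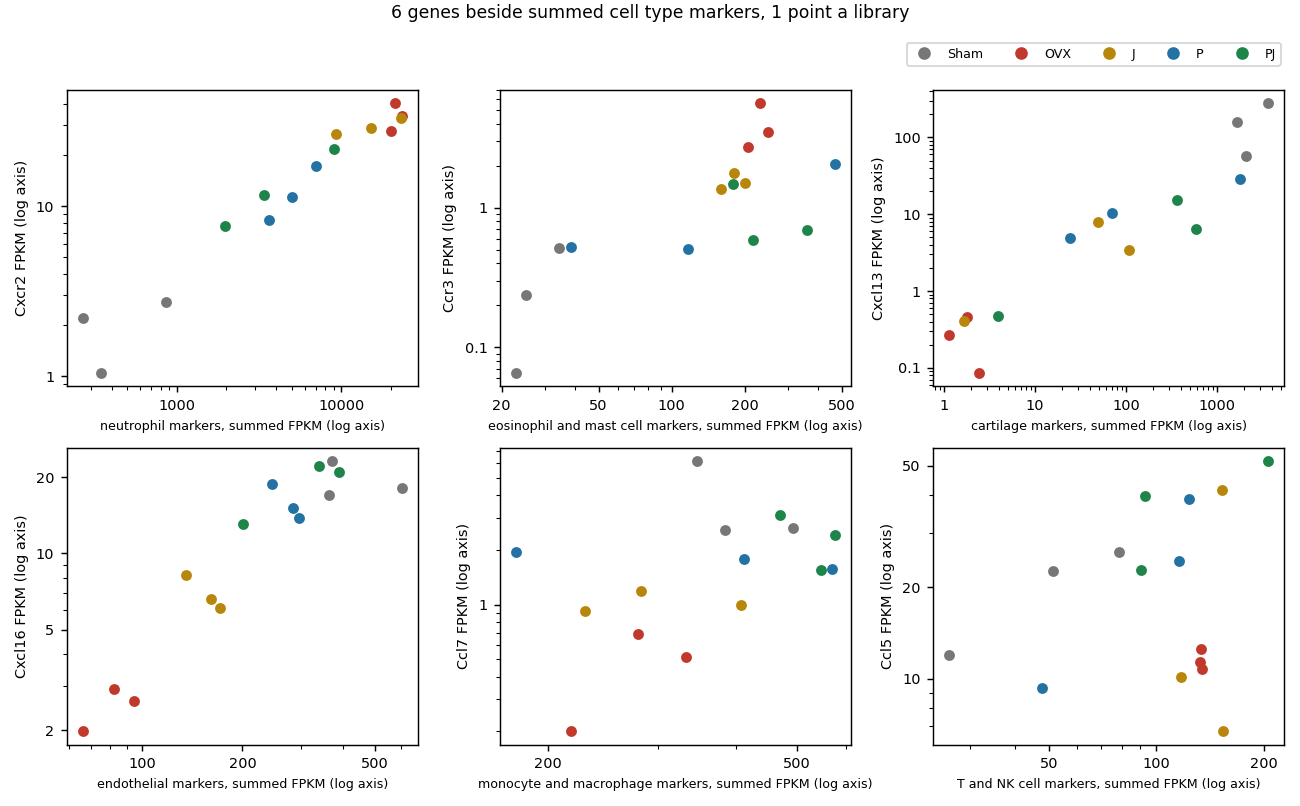
FPKM of Cxcr2, Ccr3, Cxcl13, Cxcl16, Ccl7 and Ccl5 (vertical, log axes) against the summed FPKM of the listed markers of a cell type (horizontal, log axes), with 1 point per library coloured by group. Cxcr2 and the neutrophil sums are both lowest in Sham (268 to 853.2 FPKM summed) and highest in OVX and J, while Ccl5 lies close together in OVX (10.8 to 12.5 FPKM) and spreads in J (6.74 to 41.6 FPKM).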

How the data were processed

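Polyadenylated RNA of femurs from 15 rat samples was measured, and groups and numbers were taken from the sample titles. Per the submitters' processing notes, fastp 0.23.4, STAR 2.7.11a, featureCounts 2.0.6 and the build mRatBN7.2 were used. The sources used here do not give strandedness, or how reads shared by near-identical or overlapping chemokine genes were assigned. The deposited files give 1 FPKM value per gene, in a column whose header speaks of counts, and the column named for FPKM is empty per the file headers. Since a gene's FPKM values step by the worth of 1 read, they gave back whole reads for 24184 of 24207 genes above 0 (within 0.05, checked under 10000 reads). Even numbers made up 59.8% of read numbers from 1 to 20, so fragments may have been counted by each end. An FPKM of 0 stands for no read, and 3 reads were taken as the floor, for counting error only.

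The tests used limma 3.58.1 in R 4.3.3 on log2(FPKM + 1), with all 15 libraries in 1 fit (10 residual degrees of freedom), a trended prior, two-sided tests and Benjamini-Hochberg adjustment over 14416 genes with a mean of at least 1 FPKM. Values in every library are given for genes called in at least 1 of 7 pairwise comparisons, in the order of their roles, and for ligands or receptors paired with them. The members, gene lists and roles were chosen with earlier results of these data known. The settings varied were the filter (none, or a mean of at least 5 FPKM), the pseudocount (0.1) and the scaling, with TPM or median ratios. Further fits used a replicate block, only the groups compared, each library left out in turn, and, added after the data were seen, J 2, P 2 and PJ 3 left out together. The fit was tested on simulated data with known changes. Promoter letters came from RefSeq (GRCr8), where 32 of the 45 genes had an entry. The counts cover all 45 genes, and the values of 1 called gene are not reported here.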

Additional observations from a re-analysis of the deposited data

How the results depend on the processing

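None of the 41 called differences of chemokine and receptor genes changed its direction under any alternative run. Of them, 23 were called with each library left out in turn and 18 were lost in at least 1 such fit. Median-ratio scaling lost 4, those of Ccl24 and Ccl9 in P and of Ccl5 and Cxcl14 in PJ against OVX. The fit with no filter lost 7: the same 4, Cxcl16 in P against J, and Cxcr2 in P and in PJ against J. With a mean of at least 5 FPKM fewer of these genes were tested, and the calls numbered 6 between OVX and Sham, 5 in P and 7 in PJ against OVX, and 7 in the F test. The counts with that filter, and those of called differences kept or lost, have no share of all genes beside them and say nothing particular of chemokines. In J against OVX, 2 were called with median-ratio scaling and 2 in the fit of only the groups compared. Between P and J the number was 1 with a pseudocount of 0.1, 0 with no filter, 1 with TPM and 0 in the fit of only the groups compared. Between PJ and J it was 1 with a pseudocount of 0.1, 1 with no filter and 1 in the fit of only the groups compared. Without J 2, P 2 and PJ 3 the calls numbered 7 between P and J, 6 between PJ and J and 15 in P against OVX. Leaving out 1 library gave 11 to 15 calls between OVX and Sham, 0 to 1 in J (0 without OVX 1 or J 3), 6 to 9 in P and 8 to 13 in PJ against OVX (8 without OVX 1 or PJ 2), 0 to 1 between P and J (0 without J 1, J 3, P 1 or P 3), 1 to 3 between PJ and J (3 without PJ 3), 10 to 16 in the F test, and 0 between PJ and P and for additivity. Over all 14416 tested genes these fits gave 6717 to 7364 calls between OVX and Sham, and 5818 to 8374 in the F test. Against OVX they gave 4134 to 5799 in P and 4892 to 6547 in PJ, and the other comparisons follow below.

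Over all tested genes, J against OVX gave 873 calls, with 540 with no filter, 476 with TPM, 1367 with median-ratio scaling, 1357 in the fit of only the groups compared and 2512 without J 2, P 2 and PJ 3. P against J gave 1069, with 515 with a pseudocount of 0.1, 0 with no filter, 329 with TPM, 0 in the fit of only the groups compared and 2926 without J 2, P 2 and PJ 3. PJ against J gave 2056, with 615 in the fit of only the groups compared and 5151 without the 3 libraries, and PJ against P gave 0 and then 6. Additivity gave 0, with 2 at a pseudocount of 0.1, 2 at a mean of at least 5 FPKM and 1 with TPM. With 1 library left out the ranges were 22 to 906 for J against OVX (22 without OVX 1, 88 without OVX 2, 94 without J 3, 242 without J 1), 0 to 858 for P against J (0 without J 1, J 3, P 1 or P 3, 328 without J 2), 397 to 3819 for PJ against J (397 to 925 without PJ 1, PJ 2, J 1 or J 3, 3819 without PJ 3), and 0 to 6 for additivity (6 without OVX 3). The balance of all called genes did turn: the share called higher was 54.0% in J, 61.7% in P and 67.1% in PJ against OVX, 58.9% in P and 58.8% in PJ against J, and with median-ratio scaling 30.7%, 45.2%, 45.7%, 38.1% and 31.1%. Between OVX and Sham it went from 46.7% to 52.1%. With TPM it was 79.0% in P and 75.1% in PJ against J, and without J 2 it was 27.1% in P against J. The cause of these shifts was not tested.

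Replicate numbers did not pair the libraries: correlations between same-numbered libraries of different groups were −0.41 to 0.49, those between other libraries −0.55 to 0.60, and 7 of 15 libraries were closest to their own number. With the replicate block, 15 chemokine and receptor genes were called between OVX and Sham, 8 in P and 12 in PJ against OVX. These counts have no share of all genes beside them, and say nothing particular of chemokines. In that fit the calls of Ccl5 in PJ (adjusted p = 0.0603, limma) and Ccl9 in P (adjusted p = 0.0629, limma) were lost. Ccl24 was called lower in OVX than in Sham (adjusted p = 0.0397, limma). Genes with few reads were limited by depth, above all Ccl21 and the 15 genes below the filter.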

Other observations

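Of the 45 genes, 31 lay within 200000 bases of another of them in RefSeq's GRCr8 order, in 9 groups of neighbours. In the chromosome 10 group of Ccl5, Ccl9, Ccl6, Ccl3 and Ccl4, the genes Ccl6 and Ccl3 were higher in OVX than in Sham (2.50 and 1.39 on the log2 scale) and Ccl5 and Ccl9 were not called there (−0.69 and −0.34). In PJ against OVX the same group gave calls for Ccl5 and Ccl9 (1.57 and 1.54) and none for Ccl6 and Ccl3 (−0.46 and −0.39). In another group on chromosome 10, Ccl2 and Ccl7 both fell in OVX (−1.45 and −1.65), while Ccl12 of the same group differed by 0.78 and was not called.

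On chromosome 8, the receptor genes Ccr3, Ccr1l1 and Ccr2 were all higher in OVX than in Sham (1.93, 2.12 and 1.68), and Cxcr6 in the same group was not called (−0.04). As the span of Ccr1l1 lies inside that of Ccr3, reads may have been shared between Ccr1l1 and Ccr3. In PJ against OVX, Ccr3 was lower (−1.35). The differences between neighbours were not tested.

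The 5 genes below the filter that were called in a comparison with OVX in a fit with no filter were Cxcl11, Ccl19, Ccl22, Ccl26 and Ccl27. Ccl26, an eosinophil ligand, was higher in PJ than in OVX (0.36 ± 0.12 SE, adjusted p = 0.0480, limma) at 0.405 ± 0.0678 FPKM against 0.103 ± 0.147 (SD, n = 3 each), and Ccl22 was higher as well (0.33 ± 0.10, adjusted p = 0.0324, limma).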
